A study of Mus musculus with 35 samples.

Results

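Whole lung was set against whole liver and whole small intestine of the mouse, across all genes measured. Its members were the 3 arrays labelled as whole lung controls, compared with 3 arrays of whole liver and 3 of whole small intestine, 9 of the 35 arrays of the series. The other 26 arrays held CD8+ T cells sorted from these organs and from blood, and blood mononuclear cells, and the whole organs served there as unsorted controls. All 3 groups came from healthy wild-type C57BL/6 females, no treatment named, aged 8 to 16 weeks, with no transgene or deletion in any group. The organs were broken up in a tissue dissociator, and the whole-organ samples were taken without cell selection after that step. Per the labels, a lung kit was used for lung, a tumor kit for liver and a lamina propria kit for intestine, so the kit and the organ cannot be told apart. The arrays carried a single dye, on product made by 2 rounds of amplification from 300 pg of RNA whose integrity number exceeded 8. The labels do not tie arrays to animals, so the spread between the arrays of an organ may be technical. The spread behind each p-value is pooled over the 3 organs. A test against liver therefore also carries the spread of the intestine arrays, and a test against intestine that of the liver arrays.

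The lung is an organ of gas exchange. Thin alveolar type 1 cells and a dense capillary bed form the exchange surface, alveolar type 2 cells secrete surfactant that keeps the airspaces open, and club and ciliated cells line the airways. Alveolar macrophages clear inhaled particles, and fibroblasts and smooth muscle lay down the elastic matrix that lets the tissue recoil. Liver and small intestine both descend from the gut tube, as lung epithelium does, and share a programme of lipid export, sugar handling and drug metabolism.

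Levels below are scaled log2 intensities of the probe that stands for a gene, and all differences are on the log2 scale. A gene was tested if its probe was well above background on all 3 arrays of at least one organ, which held for 9516 genes. limma was fitted to the 9 arrays, and a gene was called at a Benjamini-Hochberg adjusted p under 0.05, two-sided. A gene was called against both organs only if it differed the same way from liver and from intestine, taking the larger of both p-values before adjustment. Probes above background on none of the 9 arrays had medians of 6.67 to 8.91 per array on this scale. Where a gene was above background on no array of an organ, its fold is given as a lower bound, written "at least", against the lowest signal measurable there. Differences given with an SE are those of the fit, in which such probes enter at their measured value.

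The lung arrays agreed closely with each other (Spearman 0.980 to 0.984), with 33.0% to 34.6% of probes well above background. Whole liver replicate 2 and whole small intestine replicate 3 stood apart. Liver replicate 2 had 64.8% of probes above background, against 28.0% and 28.2% in the other liver arrays, and correlated with them at 0.867 and 0.889 where they reached 0.975 with each other. Intestine replicate 3 had 41.7% above background and correlated with its replicates at 0.840 and 0.850, where they reached 0.980. On liver replicate 2, 304 genes lay 3 or more above both other liver arrays, and on intestine replicate 3, 338 genes lay 3 or more below both other intestine arrays. Some calls changed without liver replicate 2, over the same genes, and those of the genes the results turn on are given beside their values.

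Whole lung differed widely from the mean of the other organs. Of 9516 genes, 1932 (20.3%) were higher and 1712 (18.0%) were lower in lung, with a median difference of 0.15 over all genes. Against liver alone, 1981 genes (20.8%) were higher and 1386 (14.6%) lower in lung. Against small intestine alone, 1877 (19.7%) were higher and 1669 (17.5%) lower. In both comparisons at once, 770 genes (8.09%) were higher and 501 (5.26%) lower in lung. Without liver replicate 2 these last counts were 1183 and 516, and 760 of the 770 and 480 of the 501 genes were called again. A scale set over all probes gave 73.3% in place of 58.8% of the calls against liver as higher in lung, and 75.8% in place of 60.6% of the calls against both. The median difference from liver over all genes was 0.50 on that scale, in place of 0.04, so small differences from liver depend on the scale. The balance of calls against the organ mean depended on the arrays fitted: it was 789 higher to 1119 lower (41.4% higher, in place of 53.0%) with the 3 blood arrays added and 1253 higher to 1437 lower (46.6%) with all 35 arrays, each scaled and filtered over the arrays used. The comparison with the mean also takes in genes that set lung against one organ only. Of its 1932 higher genes, 492 were called higher than liver but not intestine and 409 higher than intestine but not liver, while 18 carried an opposite call against intestine and 11 against liver. The filter bears on this: 1114 genes passed through lung alone, which favours a higher value there, and 624 of them were called higher, while 1326 passed without lung, and 834 of them were called lower.

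**Figure D1:**
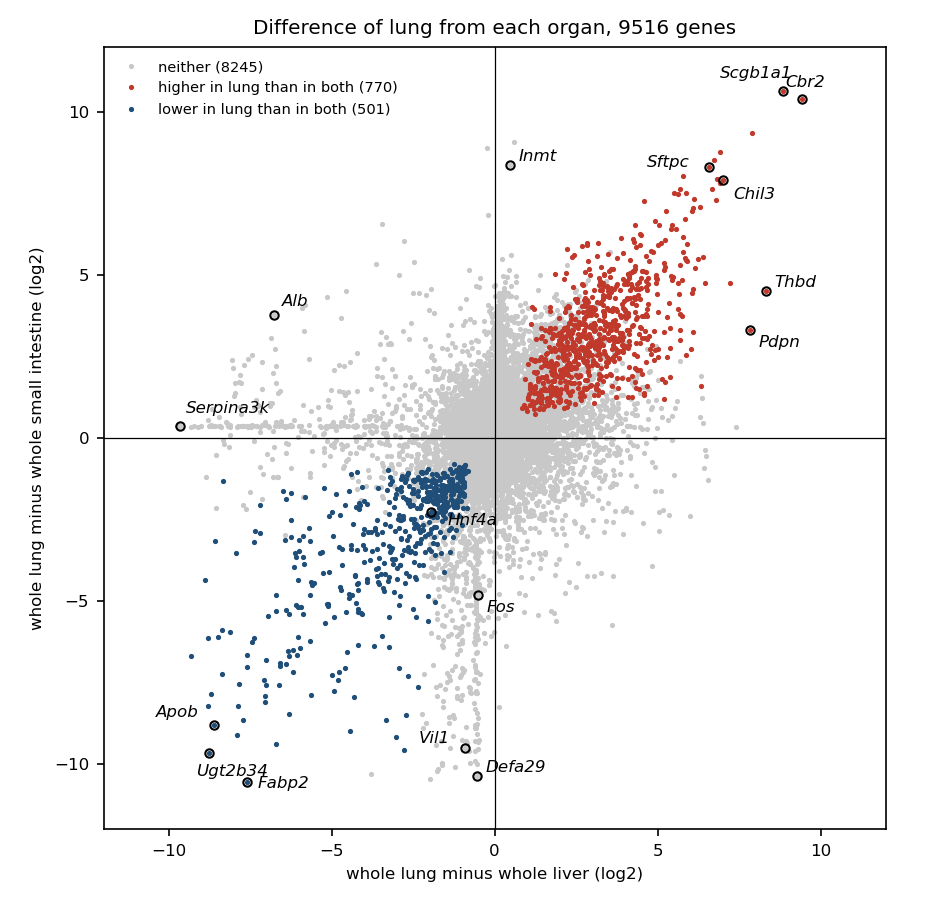
Difference of whole lung from whole liver (horizontal axis, log2) against its difference from whole small intestine (vertical axis, log2), 1 point per gene for 9516 genes, 3 arrays per organ. The 770 genes higher than in both organs (red) lie at the upper right with Cbr2 and Scgb1a1 farthest out, and the 501 lower than in both (blue) lie at the lower left with Ugt2b34 and Apob.

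The promoters of 4 genes that were higher in lung than in both organs are printed first as examples from the secretory epithelium. Sftpa1, Cxcl15 and Cbr2 were among the 15 genes with the largest difference from both organs. Sftpb was not, and came from a fixed set of genes. Scgb1a1 and Sftpc, also among the 15, are not printed. They run from 250 bases before to 50 bases after the RefSeq start site in GRCm38.p6, 5′ to 3′. Sftpa1 encodes surfactant protein A and lies at chr14:41131538-41131837, plus strand. Sftpb encodes surfactant protein B and lies at chr6:72304360-72304659, plus strand. Cxcl15 encodes lungkine, a mouse airway chemokine, and lies at chr5:90794284-90794583, plus strand. Cbr2 encodes the lung carbonyl reductase and lies at chr11:120731972-120732271, minus strand. Capitals mark CTCAAG, a core bound by NKX2-1, and TGTTTAC or TGTTTGC, bound by forkhead factors, on either strand.
Sftpa1: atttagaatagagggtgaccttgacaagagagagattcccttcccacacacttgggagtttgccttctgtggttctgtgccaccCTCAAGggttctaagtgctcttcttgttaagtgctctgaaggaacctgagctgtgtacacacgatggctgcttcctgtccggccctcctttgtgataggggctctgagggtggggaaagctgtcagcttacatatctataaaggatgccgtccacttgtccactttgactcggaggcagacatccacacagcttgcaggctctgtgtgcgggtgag
Sftpb: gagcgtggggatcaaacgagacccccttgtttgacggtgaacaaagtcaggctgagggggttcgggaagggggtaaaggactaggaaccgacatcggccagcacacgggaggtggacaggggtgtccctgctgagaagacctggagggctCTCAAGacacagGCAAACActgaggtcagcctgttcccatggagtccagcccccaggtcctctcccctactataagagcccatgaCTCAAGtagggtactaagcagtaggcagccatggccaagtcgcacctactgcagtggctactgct
Cxcl15: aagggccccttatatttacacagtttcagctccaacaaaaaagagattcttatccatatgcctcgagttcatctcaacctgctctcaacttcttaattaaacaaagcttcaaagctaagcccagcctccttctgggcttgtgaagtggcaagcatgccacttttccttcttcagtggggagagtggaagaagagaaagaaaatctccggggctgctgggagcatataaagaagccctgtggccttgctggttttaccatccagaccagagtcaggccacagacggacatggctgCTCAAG
Cbr2: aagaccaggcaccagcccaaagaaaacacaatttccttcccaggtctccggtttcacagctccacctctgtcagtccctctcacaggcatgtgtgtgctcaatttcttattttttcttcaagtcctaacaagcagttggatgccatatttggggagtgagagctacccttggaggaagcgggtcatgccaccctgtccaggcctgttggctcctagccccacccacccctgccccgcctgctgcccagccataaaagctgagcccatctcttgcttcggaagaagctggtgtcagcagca
The NKX2-1 core occurred once in the Sftpa1 window, at 2 places in the Sftpb window and once, near the end, in the Cxcl15 window, and a forkhead match occurred in the Sftpb window alone of these 4. Of all 32851 promoters of this length in the table, 15.9% held the NKX2-1 core and 8.48% a forkhead match. Among 808 promoters of genes higher in lung than in both organs, the shares were 14.6% and 6.81%. Among promoters of all tested genes they were 14.3% and 6.75%. For genes lower in lung than in both organs they were 14.0% and 8.66%.

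Of the genes lower in lung than in both organs, 2 promoters are shown: Cyp3a11, a drug-metabolizing cytochrome P450 (chr5:145879805-145880104, minus strand), and Apob, the core protein of lipoproteins (chr12:7977427-7977726, plus strand). Cyp3a11 was picked because it holds a match and Apob because it had the next largest difference from both organs after Ugt2b34. Capitals mark CAAAGTCCA or CAAAGGTCA, spellings of the HNF4 site, on either strand.
Cyp3a11: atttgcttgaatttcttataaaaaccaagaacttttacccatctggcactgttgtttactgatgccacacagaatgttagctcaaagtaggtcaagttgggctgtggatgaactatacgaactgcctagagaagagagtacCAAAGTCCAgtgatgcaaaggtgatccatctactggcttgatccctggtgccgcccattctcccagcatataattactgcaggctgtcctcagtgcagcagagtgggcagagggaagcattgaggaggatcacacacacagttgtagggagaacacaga
Apob: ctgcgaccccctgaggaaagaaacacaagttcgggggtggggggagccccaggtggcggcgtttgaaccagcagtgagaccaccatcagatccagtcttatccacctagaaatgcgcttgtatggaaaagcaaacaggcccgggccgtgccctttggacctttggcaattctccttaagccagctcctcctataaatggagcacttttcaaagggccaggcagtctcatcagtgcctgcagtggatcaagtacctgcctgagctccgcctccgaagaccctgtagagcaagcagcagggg
Cyp3a11 held 1 HNF4 match, while Apob held none of these letters in this window. Both windows also held a forkhead match, left in lower case here. An HNF4 match occurred in 0.950% of all 32851 promoters, in 3.71% of 485 promoters of genes lower in lung than in both organs and in 0.124% of 808 promoters of genes higher than in both. These shares are descriptions of the letters in the window and were not tested.

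Alveolar type 2 genes were among the largest differences in favour of lung. Of 18 listed genes 14 were tested, and 12 of those (85.7%, against 20.3% of all genes) were higher than the mean of the other organs. Of the 12, 10 were higher than both, against 8.09% of all genes. Passing the filter through lung alone favours a higher value there, and 7 of the 14 passed that way. Sftpc, which encodes surfactant protein C, measured 18.30, 18.59 and 17.95 in the lung arrays, against 10.52, 13.65 and 10.95 in liver and 10.83, 10.17 and 8.89 in intestine. Every lung array lay above every other array, and the fold was 95.6 over liver and 319 over intestine (adjusted p = 0.00097 for both in limma). Sftpa1 measured 16.72, 16.04 and 16.20 in lung, against 8.26, 11.87 and 8.66 in liver and 8.18, 8.25 and 6.91 in intestine. Only liver replicate 2 was above background for it outside lung.

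Sftpb and Sftpd, whose product is the collectin surfactant protein D, were higher by 6.90 ± 0.77 and 6.66 ± 0.43 (SE) against the organ mean. Cxcl15 measured 15.63, 15.27 and 15.28 in lung, against 8.01, 9.33 and 8.40 in liver and 7.86, 7.91 and 6.52 in intestine. It was above background on no liver or intestine array, which makes lung at least 27.9-fold higher than liver and at least 54.9-fold higher than intestine. Chil1, a chitinase-like protein made by lung epithelium and macrophages, was higher by 7.84 ± 0.88 (adjusted p = 0.0002 in limma). Lamp3, a lamellar body protein, Abca3, the lipid transporter of surfactant, Napsa, an aspartic protease that processes surfactant proteins, and Etv5, a transcription factor of these cells, were also higher in lung than in both organs. The difference for Abca3 was 1.80 ± 0.20, and it measured 16.52 to 16.76 in lung, against 15.22 to 15.64 in liver and 14.12 to 14.43 in intestine.
Nkx2-1, the transcription factor of lung epithelium, measured 11.23, 10.23 and 10.91 in lung, against 8.04, 10.32 and 8.44 in liver and 7.91, 7.96 and 6.59 in intestine. It was higher than the organ mean by 2.58 ± 0.55 (adjusted p = 0.0062), and the call against both organs was missed (adjusted p = 0.11). Without liver replicate 2 the adjusted p against both was 0.00804. Lyz2 and Fasn were not called, with differences of 0.82 and -0.02.

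**Figure D2:**
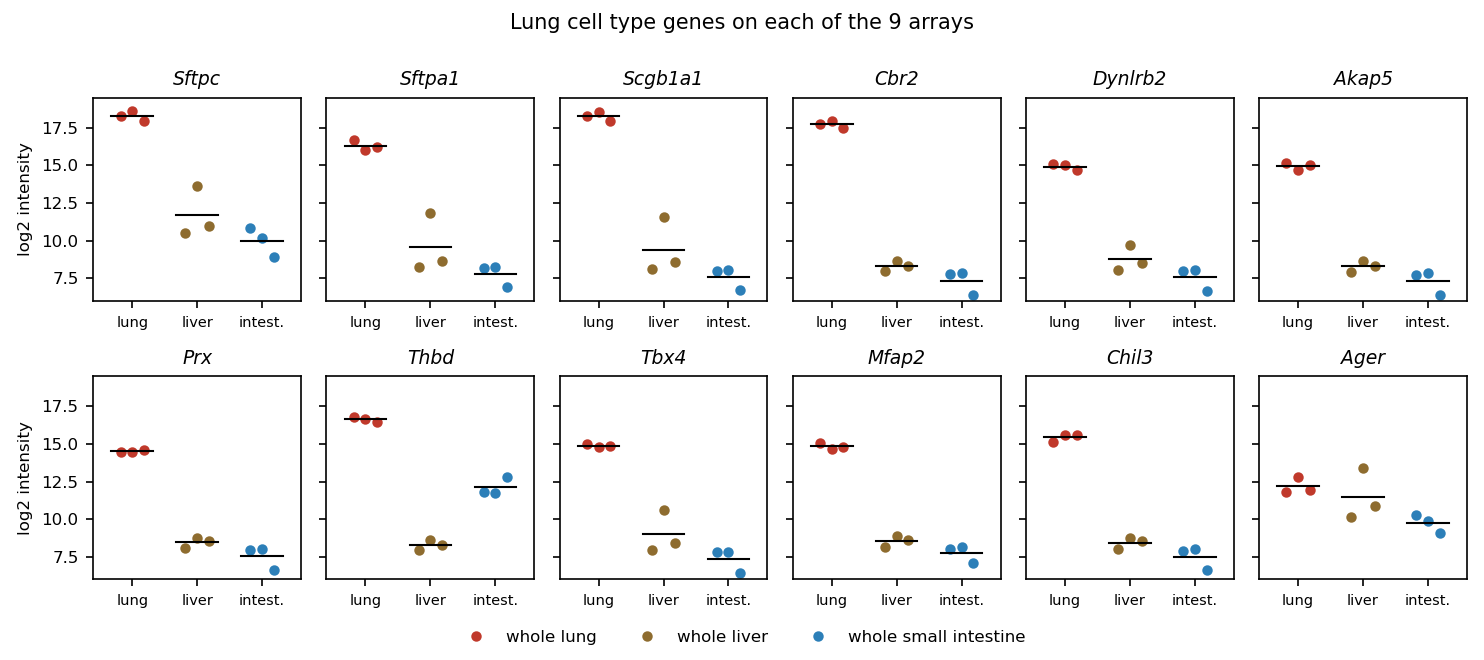
Scaled log2 intensity of 12 genes on each of the 9 arrays (points, replicates 1 to 3 from left to right within an organ) with the organ mean (bar), n = 3 arrays per organ. All 3 lung arrays lie above every other array for each gene except Ager, where liver replicate 2 at 13.37 lies above all lung arrays.

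Alveolar type 1 genes followed the same pattern. Of 16 listed genes 11 were tested. Of those, 9 (81.8%) were higher than the organ mean and 7 than both organs, against 20.3% and 8.09% of all genes. Of the 11, 5 had passed the filter through lung alone. Akap5, a scaffold for protein kinase A, measured 15.14, 14.71 and 15.04 in lung, against 7.95, 8.64 and 8.30 in liver and 7.76, 7.83 and 6.39 in intestine, at least 20.8-fold above liver and 40.8-fold above intestine. Emp2, a membrane protein of these cells, was higher by 5.80 ± 0.50 and Limch1, an actin-binding protein, by 5.19 ± 0.51.
Pdpn, which encodes podoplanin, measured 16.17 to 16.23 in lung, against 8.00 to 8.67 in liver and 12.69 to 13.20 in intestine. It was at least 48.5-fold higher than liver and lay 3.31 above intestine. Aqp5, the water channel of the alveolar surface, was higher by 2.84 than liver and by 5.99 than intestine. Clic5, a chloride channel protein, was at least 39.9-fold higher than liver but lay within 0.34 of intestine (adjusted p = 0.53), where it measured 14.99 to 16.48.
Ager, the receptor commonly used to mark type 1 cells, was not called. It measured 11.80, 12.81 and 11.94 in lung, against 10.14, 13.37 and 10.87 in liver and 10.30, 9.86 and 9.10 in intestine (difference 1.58 ± 0.67, adjusted p = 0.098). With liver replicate 2 left out its difference was 2.05 (adjusted p = 0.00259), and it was also called against both organs (adjusted p = 0.0412). Cldn18, the claudin of the alveolar wall, was above background on all 3 arrays of no organ and was not tested.

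Airway genes gave the largest differences of all. Scgb1a1, the secretoglobin that club cells secrete, measured 18.29, 18.52 and 17.95 in lung, against 8.10, 11.58 and 8.57 in liver and 8.01, 8.05 and 6.74 in intestine. It lay 8.84 above liver and was at least 399-fold higher than intestine (adjusted p = 0.00024 for both organs). Cbr2 measured 17.77, 17.97 and 17.52 in lung, against 7.97, 8.66 and 8.31 in liver and 7.78, 7.83 and 6.43 in intestine. Lung was at least 143-fold above liver and at least 282-fold above intestine, and another probe of the gene agreed in direction. Sec14l3, a lipid transfer protein of airway epithelium, was at least 84.1-fold higher than liver and 165-fold higher than intestine.
Of 15 listed club cell genes 11 were tested, and 8 (72.7%, against 20.3% of all genes) were higher than the organ mean. Higher than both organs were 4, those above and Scgb3a1, against 8.09% of all genes. Of the 11, 5 had passed the filter through lung alone, and all 5 are among the 8. Scgb3a1, another airway secretoglobin, was uneven across lung, at 14.66, 17.23 and 14.36, and Bpifb1, a secreted airway defence protein, was likewise highest on lung replicate 2, at 12.88, 15.44 and 12.56. Several genes used to mark club cells were as high in liver. Cyp2f2, a cytochrome P450, measured 16.98 to 17.52 in lung, against 16.51 to 16.84 in liver and 7.74 to 9.07 in intestine. Hp, which encodes haptoglobin, measured 17.65 to 18.26 in lung, against 18.09 to 18.32 in liver and 10.13 to 12.03 in intestine. Neither differed from liver by the test (differences 0.60 and -0.20, adjusted p = 0.26 and 0.81).

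Ciliated cell genes were higher in lung than the organ mean for 10 of 13 tested members (76.9%), 8 of them against both organs. Over all genes the shares were 20.3% and 8.09%. Of the 13, 8 had passed the filter through lung alone. Dynlrb2, a dynein light chain, measured 15.08, 15.00 and 14.69 in lung, against 8.09, 9.73 and 8.55 in liver and 7.99, 8.05 and 6.69 in intestine. Ccdc113, a protein of ciliary axonemes, was at least 8.70-fold higher than liver and 17.1-fold higher than intestine. Tmem212 and Tekt4, which encodes a filament protein of axonemal microtubules, were higher by 4.61 ± 0.34 and 4.18 ± 0.62. Foxj1, the master regulator of motile cilia, was barely called (1.95 ± 0.67, adjusted p = 0.048), with 12.63, 12.34 and 12.53 in lung, against 10.63, 13.55 and 10.90 in liver and 10.03, 9.86 and 8.33 in intestine. Leaving out liver replicate 2 gave 2.41 (adjusted p = 0.00154) and a call against both organs (adjusted p = 0.0468). A further 10 of the 23 listed ciliary genes, Dnah9, Dnah11 and Hydin among them, did not pass the filter.

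The vessel wall came next. Of 19 tested endothelial genes, 16 (84.2%) were higher in lung than the organ mean and 14 than both organs, against 20.3% and 8.09% of all genes. Of the 19, 5 had passed the filter through lung alone. Cdh5, the cadherin of endothelial junctions, measured 14.70, 14.01 and 14.31 in lung, against 10.70, 11.63 and 10.77 in liver and 9.84, 9.49 and 9.68 in intestine. The lung arrays did not overlap with any other, and Cdh5 lay 3.31 above liver and 4.67 above intestine (adjusted p = 0.00027 for both). Acvrl1, a BMP9 receptor of endothelium, was higher by 4.51 ± 0.49, and Cldn5, the endothelial claudin, by 4.15 ± 0.36. Sox17, a transcription factor of arterial endothelium, measured 12.19, 12.22 and 12.58 in lung and was above background in neither other organ. In a bulk tissue, more cells of a type and more RNA per cell cannot be told apart.
Not every endothelial gene was higher. Kdr, the main VEGF receptor, measured 10.55 to 11.60 in lung, against 10.67 to 13.05 in liver and 10.99 to 12.63 in intestine, and its other probe did not agree. Eng was not called (1.53 ± 0.53, adjusted p = 0.050). Pecam1, Tek and Emcn did not pass the filter.

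Among 20 tested genes of lung capillaries and vasoactive signalling, 12 (60.0%) were higher in lung and 2 (10.0%) lower than the organ mean, against 20.3% and 18.0% of all genes. Against both organs 8 were higher and 1 lower, where 8.09% and 5.26% of all genes were. Of the 20, 7 had passed the filter through lung alone, 6 of them called higher, and both lower genes had passed without lung. Prx, which encodes periaxin, measured 14.49, 14.45 and 14.58 in lung, against 8.08, 8.76 and 8.54 in liver and 7.98, 7.99 and 6.65 in intestine, at least 15.1-fold above liver and 29.7-fold above intestine. Thbd, thrombomodulin, measured 16.78, 16.67 and 16.42 in lung, against 7.95, 8.63 and 8.26 in liver and 11.78, 11.71 and 12.82 in intestine. It was at least 65.5-fold higher than liver, and 22.9-fold higher than intestine by the fit. Ramp2, the partner of the adrenomedullin receptor, Apln, the ligand of the apelin receptor, Gpihbp1, the anchor of lipoprotein lipase on capillaries, and Sema3c, a secreted guidance factor, were also higher than in both organs. Fibin, a secreted protein, was higher by 5.67 ± 0.51.
Car4, a carbonic anhydrase of capillary surfaces, was higher than liver by 4.82 but measured 15.24 to 15.52 in lung, against 15.98 to 16.39 in intestine, and its other probe did not agree. Vipr1, the VIP receptor, went the other way. It measured 7.99, 8.02 and 8.12 in lung, against 12.62, 12.10 and 12.40 in liver and 15.82, 15.79 and 16.32 in intestine, at least 5.23-fold higher in liver and at least 63.7-fold higher in intestine. Ace, the angiotensin-converting enzyme, measured 16.26 to 16.74 in lung, against 16.23 to 16.52 in liver and 14.71 to 16.26 in intestine, and was not called. Ednrb, the endothelin B receptor, was not tested.

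Mesenchyme and matrix were higher in lung as well. Of 16 tested mesenchymal genes 10 (62.5%) were higher and 1 (6.25%) lower than the organ mean, against 20.3% and 18.0% of all genes, and 13 were higher without liver replicate 2. Of the 16, 7 had passed the filter through lung alone, 5 of them called higher. Tbx4, the T-box factor of lung mesenchyme, measured 15.00, 14.79 and 14.88 in lung, against 7.98, 10.61 and 8.43 in liver and 7.83, 7.85 and 6.44 in intestine, at least 19.7-fold above liver and 38.7-fold above intestine. Foxf1, a forkhead factor of mesenchyme, measured 16.17, 16.07 and 16.14 in lung, against 9.17, 11.34 and 9.77 in liver and 13.28, 13.58 and 13.34 in intestine. It lay 6.03 above liver and 2.72 above intestine, so intestine stood between lung and liver. Scube2 and the integrin gene Itga8 were higher by 5.28 ± 0.53 and 5.21 ± 0.66, each above background on intestine replicate 3 but on no other array outside lung.
Inmt, an indole N-methyltransferase, measured 17.33, 17.33 and 17.12 in lung, against 16.73, 16.65 and 16.96 in liver and 7.82, 7.84 and 11.02 in intestine. It was higher than intestine by 8.37 and not distinguishable from liver (0.48, adjusted p = 0.68). Adh1, an alcohol dehydrogenase, was the member lower in lung, at 14.62 to 14.71, against 17.36 to 17.74 in liver and 16.71 to 17.97 in intestine. Tbx5 was not tested.

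Of 33 tested matrix genes, 24 (72.7%) were higher than the organ mean and 16 than both organs, against 20.3% and 8.09% of all genes. None was lower than the mean, against 18.0%. Of the 33, 11 had passed the filter through lung alone. Without liver replicate 2 the counts of higher genes were 28 and 21, with 1 lower than the mean. Mfap2, a component of elastic microfibrils, measured 15.06, 14.69 and 14.81 in lung, against 8.13, 8.89 and 8.64 in liver and 8.05, 8.13 and 7.08 in intestine, at least 19.2-fold above liver and 37.7-fold above intestine. Mfap5, another microfibril protein, and Ogn, a small proteoglycan, were higher by 4.80 ± 0.43 and 4.67 ± 0.32. Loxl1, an enzyme that cross-links elastin, was higher by 3.61 ± 0.65. Fbln5, a fibulin of elastic fibres, and Ltbp4, which holds latent TGF-beta in the matrix, were called against both organs too.
Eln, elastin itself, measured 11.95, 11.21 and 11.57 in lung, against 8.09, 11.56 and 9.17 in liver and 8.34, 8.05 and 7.01 in intestine. It was higher than the organ mean (2.88 ± 0.69, adjusted p = 0.011) but not than both organs (adjusted p = 0.18), with liver replicate 2 at the level of lung. The fibrillar collagens Col1a1 and Col3a1 were higher than liver (5.01 and 3.60) and not called against intestine. Dcn, Lum and Fn1 were not called against the mean, and Fn1 was lower than in liver (-1.17) and higher than in intestine (1.31).

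Of 15 tested members of the smooth muscle and pericyte list, 12 were higher than liver and none lower, against 20.8% and 14.6% of all genes, and 5 were higher and 2 lower than intestine, against 19.7% and 17.5%. Whether the comparisons differ was not tested. Acta2, smooth muscle actin, measured 16.37, 16.66 and 16.15 in lung, against 11.77, 9.48 and 8.50 in liver and 16.98, 16.59 and 17.29 in intestine. Actg2, the enteric smooth muscle actin, was lower than in intestine (difference -2.35). The 5 genes higher than in both organs were none of the listed actins. Cox4i2, a cytochrome oxidase subunit, was at least 12.0-fold higher than liver, and 39.9-fold higher than intestine by the fit. Higd1b, a marker of lung pericytes, measured 15.94 to 16.17 in lung, against 10.58 to 12.61 in liver and 10.58 to 11.20 in intestine. Notch3, the pericyte Notch receptor, and Gucy1a1 and Gucy1b1, the subunits of the nitric oxide receptor, completed this set. Of 4 tested mesothelial genes 3 were higher than the organ mean, against 20.3% of all genes. By organ, 3 were higher than liver, while 2 were higher and 1 lower than intestine. Only 1 was higher than both organs, against 8.09% of all genes. Msln, the mesothelin of serosal linings, measured 15.68, 15.53 and 14.59 in lung, against 11.08, 12.70 and 12.76 in liver and 11.54, 11.63 and 12.19 in intestine, and was higher than in both organs (adjusted p = 0.0042).

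**Figure D3:**
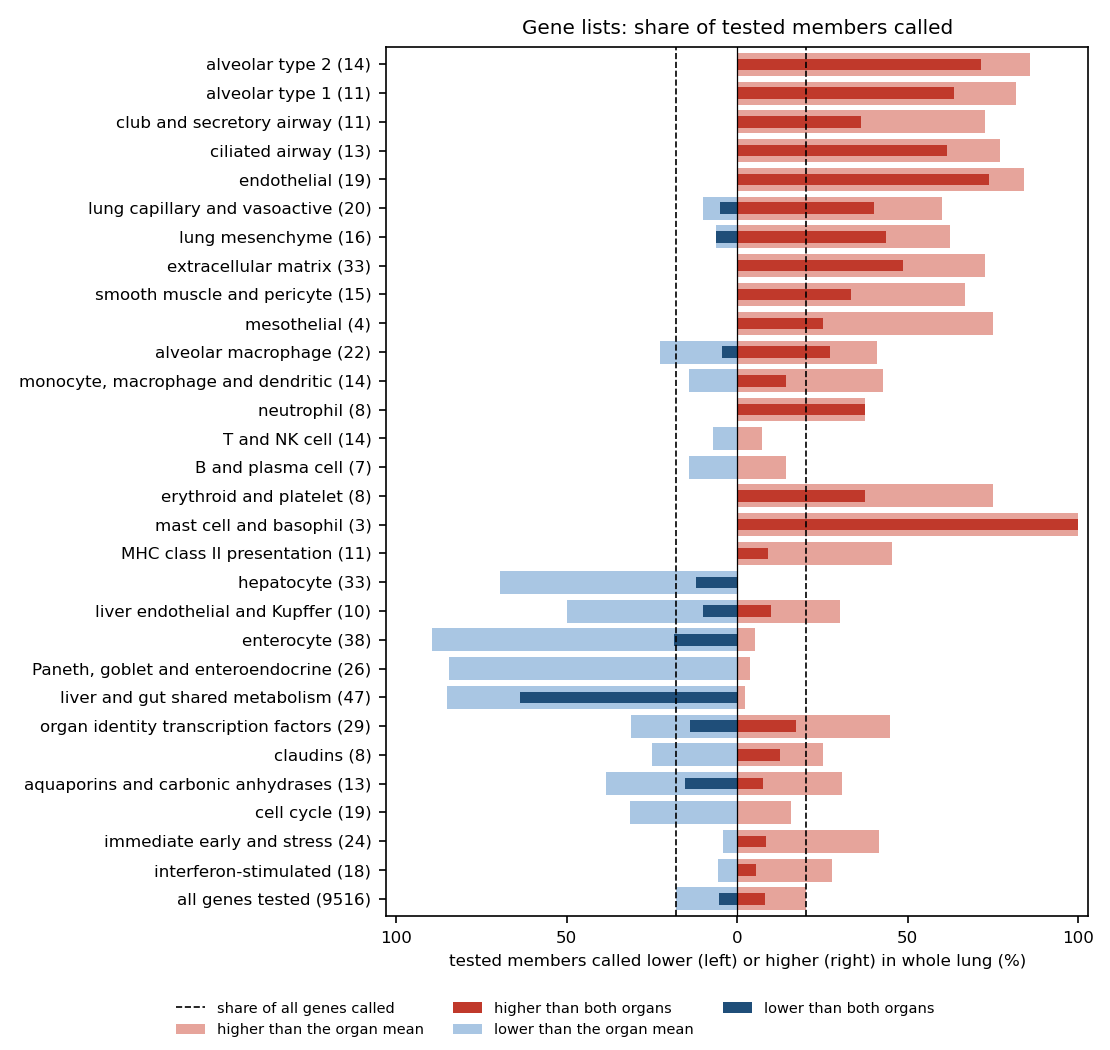
Share of the tested members of 29 gene lists (number tested in brackets) called higher (right, red) or lower (left, blue) in whole lung, against the mean of whole liver and whole small intestine (wide bars) and against both organs (narrow bars). Dashed lines mark the shares over all 9516 genes, 20.3% higher and 18.0% lower, and the alveolar, endothelial and matrix lists extend far to the right while the liver and gut lists extend far to the left.

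Macrophage genes were mixed. Of 22 tested genes listed for alveolar macrophages, 9 (40.9%) were higher and 5 (22.7%) lower than the organ mean, against 20.3% and 18.0% of all genes. Of the 22, 7 had passed the filter through lung alone. Chil3, a chitinase-like protein of these cells, measured 15.11, 15.56 and 15.61 in lung, against 8.00, 8.76 and 8.52 in liver and 7.90, 7.99 and 6.65 in intestine, at least 28.5-fold above liver and 56.2-fold above intestine. Ear2, an eosinophil-associated ribonuclease, Krt79, a keratin, and Plet1, a surface protein, were higher than in both organs, with differences from the organ mean of 5.67 ± 0.53, 4.37 ± 0.54 and 3.37 ± 0.25. The genes lower in lung also mark other cells. Pparg, a nuclear receptor, and Fabp4, a lipid carrier of fat and capillary cells, had differences of -1.29 ± 0.28 and -1.90 ± 0.38, and Il18, a cytokine of gut epithelium, of -2.83 ± 0.33. Il18 was also called against both organs (adjusted p = 0.029), and not without liver replicate 2 (adjusted p = 0.0558). Serpinb1a, a protease inhibitor, was lower than in intestine (-4.79) and not called against liver (0.14, adjusted p = 0.92). Marco, a scavenger receptor shared by alveolar macrophages and Kupffer cells, measured 14.28, 12.87 and 13.30 in lung, against 13.45, 14.83 and 14.78 in liver and 9.40, 9.62 and 8.64 in intestine. Siglecf, the sialic acid receptor used to sort alveolar macrophages, was not called (0.13 ± 0.51).

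Of 14 tested genes of monocytes and dendritic cells, 6 (42.9%) were higher and 2 (14.3%) lower in lung, against 20.3% and 18.0% of all genes. Nr4a1, the orphan receptor required for patrolling monocytes, was higher by 3.23 ± 0.61, and Cd209a, a dendritic cell lectin, by 3.00 ± 0.25, both against both organs. Cx3cr1, the fractalkine receptor, was 3.72 above liver and within 0.51 of intestine. Plac8 was lower than the organ mean (-0.87 ± 0.25), with a higher level than in liver (1.97) and a lower one than in intestine (-3.70).
Of 8 tested neutrophil genes, 3 (37.5%) were higher, against 20.3% of all genes, and 16 more did not pass the filter, S100a8 among them. The 3 were S100a9, Lcn2 and Hdc, which is also on the mast cell and basophil list. Of the 3, 2 had passed the filter through lung alone. S100a9, a calcium-binding protein of neutrophils, varied within lung at 12.09, 12.92 and 14.50, against 8.57, 11.49 and 9.78 in liver and 7.75, 9.51 and 9.79 in intestine. Lcn2, an iron-trapping protein that epithelium also makes, was higher by 3.51 ± 0.25. Hdc, Gata2 and Kit, which belong to the mast cell and basophil list and other lineages, were higher by 5.00 ± 0.45, 4.81 ± 0.58 and 3.93 ± 0.64. The defining mast cell genes Cpa3, Mcpt4, Tpsb2, Cma1 and Fcer1a did not pass the filter.
Of 14 tested T and NK cell genes, 1 was higher and 1 lower (Cd3g, at 7.98 to 8.11 in lung), 7.14% each way against 20.3% and 18.0% of all genes. Of 7 tested B and plasma cell genes, 1 was higher (Ebf1, 2.05 ± 0.62) and 1 lower, 14.3% each way against 20.3% and 18.0% of all genes. Without liver replicate 2 these counts were 2 and 3. Jchain, the joining chain of secreted antibodies, measured 7.92 to 8.14 in lung, against 8.08 to 10.72 in liver and 15.40 to 17.13 in intestine, at least 64.6-fold higher in intestine. Of 8 erythroid and platelet genes, 6 were higher in lung. Alas2, the haem synthesis enzyme of red cells, was higher by 2.59 ± 0.21, Hbb-bt, a beta globin whose near copies its probe may also read, by 2.46 ± 0.35, and Pf4, a platelet chemokine, by 2.54 ± 0.35. The call of Hbb-bt against both organs (adjusted p = 0.027) was missed with liver replicate 2 left out (adjusted p = 0.053). The part of blood left in the organs was not tested.
Of 11 tested genes of MHC class II presentation, 6 were higher than liver and 1 than intestine, against 20.8% and 19.7% of all genes; whether the comparisons differ was not tested. H2-DMb1 was higher than liver by 2.52 and H2-Eb1 by 2.51, while neither was called against intestine (0.45 and 0.12). Cd40, a costimulatory receptor, was the gene higher than in both, and was above background in neither other organ.

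Metabolism that liver and gut share led the genes lower in lung. Of 47 tested genes of a list of functions common to hepatocytes and enterocytes, 40 (85.1%, against 18.0% of all genes) were lower in lung than the organ mean, and 1 was higher. Of the 40, 30 were lower than both organs, against 5.26% of all genes. Of the 47, 34 were not above background on all 3 lung arrays and so had passed the filter through liver or intestine. Ugt2b34, a glucuronosyltransferase, measured 7.66, 7.71 and 7.83 in lung, against 16.27, 16.64 and 16.61 in liver and 17.20, 17.36 and 17.65 in intestine. Liver was at least 91.9-fold and intestine at least 171-fold higher (adjusted p = 5.7e-07 for both). Apob measured 7.60, 7.64 and 7.77 in lung, against 16.61, 16.07 and 16.16 in liver and 16.25, 16.36 and 16.84 in intestine. Apoa1, the main protein of HDL, measured 9.87 to 10.13 in lung, against 15.58 to 16.17 in liver and 15.36 to 15.46 in intestine.
The groups were far apart for each of these, and none was above background on any lung array. Creb3l3, a membrane-bound transcription factor of lipid metabolism, was at least 55.2-fold higher in liver and 126-fold higher in intestine than in lung. Abcg5, the sterol exporter, was at least 45.1-fold and 85.1-fold higher, and Aadac, a microsomal lipase, at least 144-fold and 96.2-fold higher. Cyp4f14, a cytochrome P450, was at least 72.3-fold and 149-fold higher, and Ugt2a3 at least 55.4-fold and 45.8-fold. Tkfc, which handles fructose carbon, was at least 28.0-fold higher in liver and 50.9-fold higher in intestine, and Cyp3a25 at least 30.3-fold and 44.4-fold. Ces2a, a carboxylesterase above background on 1 lung array, differed by -7.08 from liver and -7.42 from intestine. Fabp2, the intestinal fatty acid binding protein, was at least 40.0-fold higher in liver and 312-fold higher in intestine. Ces1d, a lung and liver carboxylesterase, was the member higher in lung than the mean. It measured 13.75 to 14.41 in lung, against 16.04 to 16.30 in liver and 9.51 to 10.79 in intestine, so it was lower than liver and higher than intestine.

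**Figure D4:**
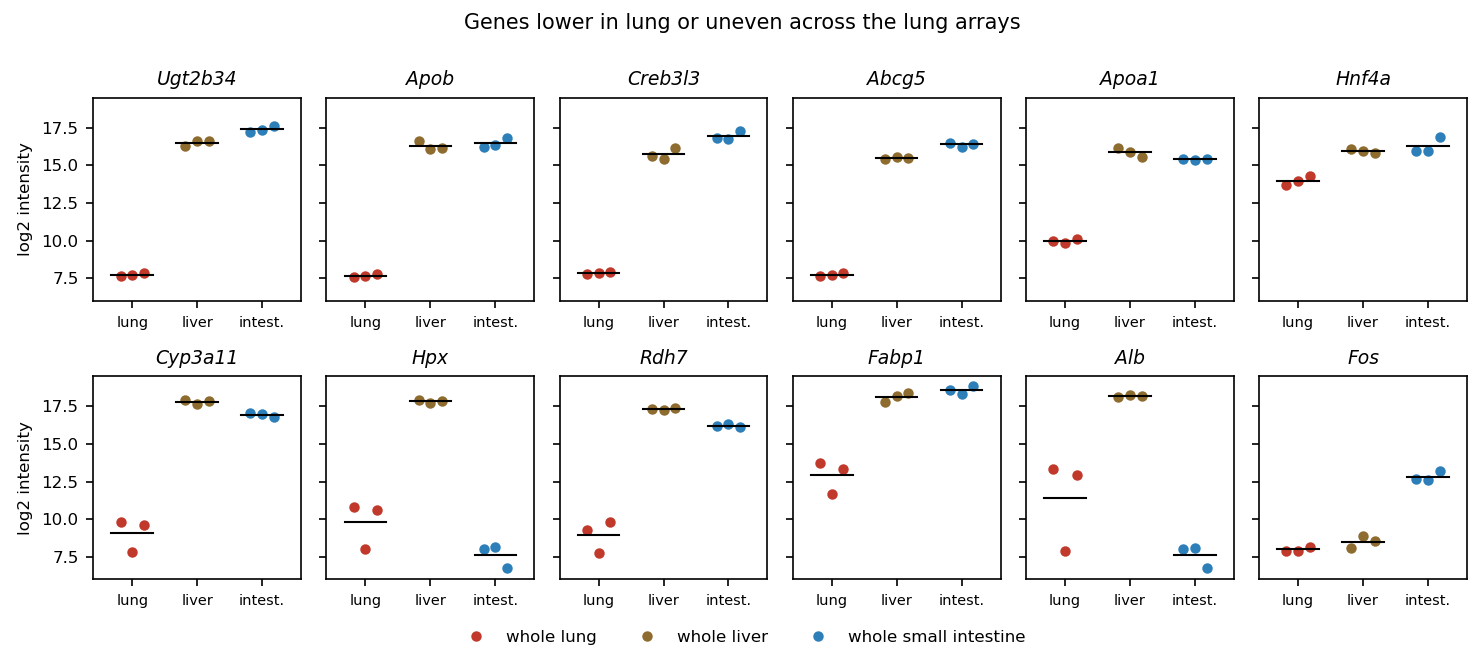
Scaled log2 intensity of 12 genes on each of the 9 arrays (points, replicates 1 to 3 from left to right within an organ) with the organ mean (bar), n = 3 arrays per organ. Ugt2b34, Apob, Creb3l3 and Abcg5 lie between 7.60 and 7.93 on every lung array, Hnf4a lies between 13.71 and 14.30, and Alb reads 13.36 and 12.96 on lung replicates 1 and 3 but 7.92 on replicate 2.

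Hepatocyte genes were lower in lung than in liver and uneven across the lung arrays. Of 33 tested members, 31 were lower than liver, against 14.6% of all genes. Against intestine, 11 were higher in lung and 4 lower, where 19.7% and 17.5% of all genes were. Of the 33, 20 had passed the filter without lung, 18 of them called lower than the organ mean. Alb, serum albumin, measured 13.36, 7.92 and 12.96 in lung, against 18.09, 18.25 and 18.19 in liver and 8.00, 8.09 and 6.76 in intestine. The mean of lung replicates 1 and 3 lay 5.24 above replicate 2, which was not above background, and the call against the organ mean was missed (adjusted p = 0.33). Fgg, a fibrinogen chain, measured 11.31, 7.92 and 10.66 in lung, and Hpx, hemopexin, 10.79, 7.99 and 10.62.
Part of the list followed the same pattern. Its median level was 10.79, 8.88 and 10.62 on the lung arrays, against 17.46, 17.31 and 17.44 in liver and 9.52, 9.08 and 8.43 in intestine. In 13 of the 33 genes (39.4%) the mean of lung replicates 1 and 3 was more than 1 above replicate 2, against 2.06% of all 9516 genes. Rdh7, a retinol dehydrogenase among the 15 genes lowest against both organs, showed it too, at 9.28, 7.76 and 9.80 in lung, while Ugt2b34 and Apob did not. The number of hepatocyte genes higher in lung than in intestine was 6 without lung replicate 1 and 6 without replicate 3. Where this RNA came from was not tested. Other members were level across lung: Serpina3k, a plasma protease inhibitor, measured 7.67, 7.71 and 7.86 in lung, against 17.46, 17.31 and 17.44 in liver and 7.79, 7.84 and 6.47 in intestine. Otc, a urea cycle enzyme that gut also uses, measured 7.85 to 8.05 in lung, against 15.51 to 15.57 in liver and 14.02 to 15.60 in intestine.
Genes of liver sinusoids and Kupffer cells did not all follow the hepatocyte genes. Clec4g and Vsig4, markers of sinusoidal endothelium and Kupffer cells, were above background on no lung array, and Cd5l, a macrophage secreted protein, was lower than in liver (-4.41). Lyve1, the hyaluronan receptor of lymphatic and sinusoidal endothelium, was higher in lung, at 14.74, 14.36 and 14.10, against 10.77, 9.76 and 8.50 in liver and 7.94, 7.95 and 11.05 in intestine (5.07 ± 0.76, adjusted p = 0.00092). Stab1, a scavenger receptor of both tissues, lay within 0.47 of liver.

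Most gut epithelial genes were not above background in lung. Of 38 tested enterocyte genes, 34 (89.5%) were lower than the organ mean and 2 (5.26%) higher, against 18.0% and 20.3% of all genes. Of the 38, 31 had passed the filter without lung, 30 of them called lower. Vil1, the actin bundler of microvilli, measured 7.76, 7.80 and 7.96 in lung, against 8.02, 9.77 and 8.48 in liver and 17.12, 17.08 and 17.83 in intestine, at least 164-fold higher in intestine. Slc2a2, the glucose transporter shared with hepatocytes, was at least 18.8-fold higher in liver and 24.5-fold in intestine. Of 26 tested Paneth, goblet and enteroendocrine genes, 22 (84.6%) were lower than the organ mean, against 18.0% of all genes. By organ, 25 were lower than intestine and 1 lower than liver, against 17.5% and 14.6% of all genes. Of the 26, 22 had passed the filter without lung, 20 of them called lower than the organ mean. The list's median level was 8.06, 8.03 and 8.18 on the lung arrays, against 8.20, 12.06 and 8.66 in liver and 15.72, 15.69 and 16.11 in intestine. Defa29, a Paneth cell defensin, Itln1, an intelectin, Zg16, a goblet cell lectin, and Tff3, a trefoil peptide, were at least 295-fold, 245-fold, 232-fold and 290-fold higher in intestine than in lung. Defensin genes are near copies of each other, so their probe may read more than one.
A few genes of these lists were high in lung. Lyz1, which encodes the Paneth cell lysozyme, measured 16.38, 16.06 and 15.48 in lung, against 8.05, 11.57 and 8.61 in liver and 16.77, 16.73 and 18.26 in intestine. Its near copy Lyz2 is listed above, and probes may not separate them. Lgals3, galectin-3, which macrophages also make, was at least 17.8-fold higher than in liver and lower than in intestine (-2.39). Krt8, a keratin of simple epithelia, was not above background in lung, at 7.98 to 8.10, while its usual partner Krt18 measured 16.27 to 16.70 in lung, against 17.27 to 17.59 in liver and 16.73 to 17.10 in intestine.

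**Figure D5:**
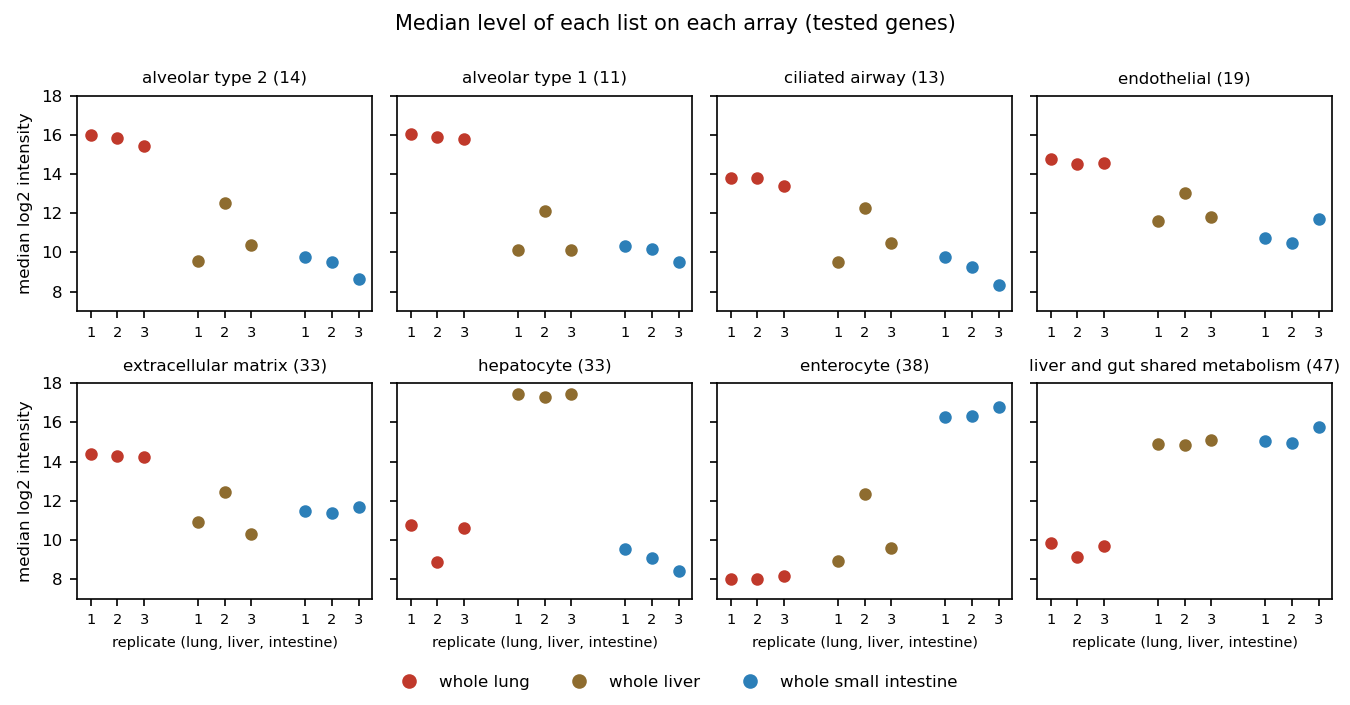
Median scaled log2 intensity of the tested genes of 8 lists (number in brackets) on each of the 9 arrays. The lung arrays lie above the others for the alveolar, ciliated, endothelial and matrix lists, liver replicate 2 lies above its replicates for 6 of the 8 lists, and the hepatocyte list reads 8.88 on lung replicate 2 against 10.79 and 10.62 on replicates 1 and 3.

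The transcription factors of the organs went both ways. Of 29 tested factors, 13 (44.8%) were higher and 9 (31.0%) lower in lung than the organ mean, against 20.3% and 18.0% of all genes. Against both organs 5 were higher and 4 lower, where 8.09% and 5.26% of all genes were. Of the 29, 7 had passed the filter through lung alone, 5 of them called higher. Another 9 had passed without lung, 7 of them called lower. Tbx4, Foxf1, Sox17, Hoxa3 and Hoxb4 were the 5 higher than in both. Hoxa3 and Hoxb4, patterning genes of the body axis, were higher by 3.20 ± 0.52 and 2.21 ± 0.19. Without liver replicate 2, 10 factors were higher than both organs. Foxa2, which lung and liver epithelium both use, measured 14.33 to 14.53 in lung, against 14.46 to 15.07 in liver and 10.77 to 11.55 in intestine.
Hnf4a, Nr5a2 and Gata4 were among the 4 lower than in both organs. Hnf4a, the nuclear factor of liver and gut epithelium, measured 13.71, 13.98 and 14.30 in lung, against 16.09, 15.96 and 15.84 in liver and 15.93, 15.97 and 16.91 in intestine. It was well above background on all lung arrays and lower than the organ mean (-2.12 ± 0.28). Nr5a2, an orphan nuclear receptor, measured 7.66 to 7.86 in lung, against 11.56 to 13.10 in liver and 8.88 to 10.62 in intestine. Gata4 was at 7.60 to 7.77 in lung and at least 2.62-fold higher in liver and 16.9-fold higher in intestine. Onecut2, the cut-homeodomain factor of liver and gut, was not on the list but among the 15 genes lowest against both, at 7.93 to 8.16 in lung, against 15.54 to 15.71 in liver and 14.69 to 15.30 in intestine. Of the intestinal homeobox factors, Cdx1 was at least 34.3-fold higher in intestine than in lung and Cdx2 differed by -4.49 from intestine, and neither was called against liver.

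Barrier and transport families differed gene by gene. Of 8 tested claudins, 2 were higher and 2 lower in lung, a share near that of all genes. Cldn10 was higher by 3.34 ± 0.90 and not called against both organs (adjusted p = 0.20), but was without liver replicate 2 (adjusted p = 0.00414), and Cldn3 and Cldn12 were lower, with differences of -1.12 ± 0.37 and -0.95 ± 0.23. Of 13 tested aquaporins and carbonic anhydrases, 4 (30.8%) were higher and 5 (38.5%) lower, against 20.3% and 18.0% of all genes, and all 5 lower members had passed the filter without lung. Aqp1, the water channel of capillaries, measured 14.35 to 14.64 in lung, against 11.14 to 12.35 in liver and 13.15 to 14.42 in intestine. Aqp8 and Aqp11 were above background on no lung array, with Aqp8 at least 81.6-fold higher in liver. Car3, a carbonic anhydrase of hepatocytes and muscle, was lower than in both organs (-5.05 ± 0.42 from the mean), and Car9 was at least 33.8-fold higher in intestine than in lung.

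Of 19 tested cell cycle genes, 11 were lower in lung than in intestine and 1 higher, against 17.5% and 19.7% of all genes. Than in liver, 5 were higher, a share near the 20.8% of all genes, and none lower, against 14.6%. Of the 19, 6 had passed the filter without lung, 4 of them called lower than the organ mean. Ccna2, cyclin A2, measured 7.95 to 8.72 in lung, against 8.09 to 8.80 in liver and 11.85 to 13.71 in intestine. Mki67, the proliferation marker, was at least 2.12-fold higher than in liver and lower than in intestine (-1.80), and its other probe did not agree. Mcm3 and Mcm4, subunits of the replicative helicase, were higher than the organ mean by 0.86 ± 0.26 and 0.96 ± 0.29. Neither was called against both organs, and no cell cycle gene was.
Of 24 tested immediate early and stress genes, 10 (41.7%) were higher and 1 (4.17%) lower in lung than the organ mean, against 20.3% and 18.0% of all genes. Only 2 of the 24 were higher than in both organs, a share near the 8.09% of all genes. Klf2, the shear stress factor of endothelium, measured 15.44, 15.57 and 15.32 in lung, against 12.10, 13.08 and 12.19 in liver and 11.55, 10.86 and 11.86 in intestine. Klf4 was at least 10.8-fold higher than in liver and lower than in intestine (-1.12), and Hspb1, a small heat shock protein, was higher by 2.90 ± 0.53. Fos, the immediate early gene that tissue dissociation often induces, measured 7.89, 7.90 and 8.17 in lung, against 8.09, 8.86 and 8.54 in liver and 12.64, 12.63 and 13.18 in intestine. It was above background in intestine only, at least 7.13-fold higher than in lung.
Of 18 tested interferon-stimulated genes, 5 (27.8%) were higher and 1 (5.56%) lower than the organ mean, the higher share near the 20.3% of all genes. Isg20, an interferon-induced exonuclease, was the gene higher than in both organs (2.56 ± 0.28). Gbp2 was higher than the mean by 3.16 ± 0.76, and Oas1a, an interferon-induced RNA sensor, was lower (-0.59 ± 0.20).

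Among the 15 genes with the largest difference from both organs, 3 were on no list. Rasgef1a, a Ras exchange factor, measured 16.65, 16.05 and 16.30 in lung, against 8.66, 11.08 and 8.54 in liver and 8.96, 9.77 and 6.81 in intestine, at least 51.7-fold above liver and 105-fold above intestine. Actc1, cardiac alpha actin, measured 15.63, 15.48 and 14.93 in lung, against 8.15, 8.87 and 8.64 in liver and 8.07, 8.15 and 7.88 in intestine. Sfta3-ps, annotated as a pseudogene of a surfactant-associated gene, was at least 16.0-fold higher than liver and 31.5-fold higher than intestine, at 14.91, 14.26 and 14.61 in lung. All 3 were above background on every lung array and on no other array.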

How the data were processed

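Gene expression was measured on 1-colour Agilent arrays of 43020 spots, extracted with Feature Extraction 11.0.1.1 per the file headers, whereas version 10.7, with Partek, is given in the submitters' processing notes. The authors deposited scanner output, whose processed signal is a background-corrected intensity per the file headers, and a table of log2 values, which matched quantile-normalized log2 intensities to a median absolute difference of at most 0.00082 per array and was used as an alternative. Spots of a probe were averaged, and 25 probes flagged on some array were left out. log2 intensities were scaled by each array's 75th percentile over 8007 probes well above background on all 9 arrays. Names came from the files, and 11917 of 39404 probes had none. Of a gene's kept probes the one with the highest mean was used. limma 3.58.1 in R 4.3.3 gave moderated tests over 9516 genes with Benjamini-Hochberg adjustment. The script was tested on simulated data. With 3 arrays per organ, their number limits the precision.

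All members and gene lists were chosen with earlier results of these data known. The genes named were the 15 with the largest difference from both organs in each direction, up to 4 called members per list and direction, and a fixed set; further list members, named to show a pattern or a missing call, were chosen after their values were seen. Replicate numbers equal slides, each holding 1 array per organ, and same-numbered arrays did not deviate together (correlations -0.325 to 0.033), so the slide was a block only in an alternative. Other alternatives changed the scale, normalization, background correction, filter, probe rule, arrays fitted, array weights, variance model and fold minimum and left out each array. Those without liver replicate 2, or also without intestine replicate 3, over the same probes were added after seeing the data. Promoters came from RefSeq (GRCm38.p6). Results of some genes are not reported here.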

Additional observations from a re-analysis of the deposited data

How the results depend on the processing

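The number of genes called was 3644 against the organ mean, 3367 against liver, 3546 against intestine and 1271 against both. Requiring a probe above background on all 9 arrays gave 1839, 1802, 1894 and 681, over fewer genes. Array weights gave 5922, 5674, 5643 and 2845, and a fit of the 12 unsorted arrays 1908, 1601, 1888 and 526. Without liver replicate 2 and intestine replicate 3 the counts were 5566, 5083, 5125 and 2366. Calls against both organs numbered 785 with no filter and 802 in a fit of all 35 arrays. The causes of these shifts were not tested. Leaving out 1 array gave 2685 to 4353 against the mean, 2577 to 4009 against liver, 2614 to 4314 against intestine and 841 to 1705 against both, where it fell to 847 without lung replicate 2 and 841 without lung replicate 3. The 4009 calls against liver came without intestine replicate 3, an array outside that comparison but within the pooled spread. With the slide as replicate block the counts were 3151, 2957, 3092 and 1015. The replicate numbers pair no animals. Of 155 named genes 152 were called, and 104 kept their call under every alternative that tested them. The 12 unsorted arrays cost 37 genes a call and leaving out a lung array 20 to 22. The difference of Alb from the organ mean was -2.46 to 0.26 with 1 array left out, positive only without lung replicate 2, and that of Mki67 turned to -0.23 under normexp and -0.34 for the mean of its probes; neither was called in any of these. Probes not above background bound the folds.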

Other observations

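Beside Actc1, 4 heart muscle genes were looked at, chosen after their values were seen, and 2 of them were called higher in lung than the organ mean. Myl4, an atrial myosin light chain, measured 15.99, 15.89 and 14.65 in lung, against 8.10, 11.45 and 8.31 in liver and 10.67, 8.43 and 10.92 in intestine. It was higher than in both organs (adjusted p = 0.0065 in limma). Tnnt2, cardiac troponin T, measured 12.26, 11.41 and 10.59 in lung, against 8.05, 11.19 and 8.58 in liver and 9.01, 8.04 and 8.58 in intestine (difference from the organ mean 2.51 ± 0.69, adjusted p = 0.020). Myl7, the other atrial light chain, was not called (2.41 ± 0.93, adjusted p = 0.072), nor was Myh6, the alpha myosin heavy chain (-0.33 ± 0.59, adjusted p = 0.69). All 3 of Myl4, Tnnt2 and Myl7 were lowest on lung replicate 3, as Actc1 was. Their source was not tested.

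On intestine replicate 3, 88 genes lay 3 or more log2 units below 8 other arrays that agreed within 1, and no other array had such a gene. Xcr1 and Esam narrowly missed this rule, as their other 8 arrays spread over slightly more than 1, but both also read lowest there. Xcr1, a dendritic cell chemokine receptor, measured 15.95, 16.45 and 16.44 in lung, against 16.16, 16.18 and 16.15 in liver and 15.39, 15.35 and 8.37 in intestine. Esam, an endothelial adhesion molecule, measured 16.68 to 16.92 in lung, against 16.29 to 16.49 in liver and 15.81, 15.83 and 11.59 in intestine. The probes of some genes known from 1 cell type read level in all 3 organs. That of Slc10a1, the bile acid transporter of hepatocytes, read 17.87 to 18.44 in lung, against 17.90 to 18.02 in liver and 18.09 to 18.54 in intestine. Whether the probes of Slc10a1 and Xcr1 read these genes alone was not tested.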
